A study of Mus musculus with 10 samples.

Results

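S100 genes were followed through the chemical conversion of mouse fibroblasts into cells like those of the extraembryonic endoderm (XEN). The 10 genes *S100g*, *S100a1*, *S100a4*, *S100a6*, *S100a8*, *S100a10*, *S100a11*, *S100a13*, *S100a16* and *S100b* were chosen by their measured levels in the same count table, in which 18 of 23197 gene names start with S100. The lowest of the 10, *S100a16*, reached a mean of 52.2 CPM at its highest time point. CPM are UMIs of the gene per 1000000 UMIs of the cell. A UMI, or unique molecular identifier, is a tag that marks an RNA molecule. Next among the 18 names were *S100pbp* and *S100a3*, at 11.2 and 6.47 CPM, and such a name alone does not place a gene in the family. The values that chose the genes are given as a description and were not tested.

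Embryonic fibroblasts (MEFs) came from ICR mouse embryos freed of head, limbs and viscera, and were therefore a mixture of mesenchymal cells rather than one clone. The d0 cells had not met the cocktail, and all later cells had been kept in C6FAE (CHIR99021, the compound abbreviated 6, Forskolin, AM580 and EPZ004777), to which the medium recipe of the study's methods adds valproic acid. Cells were picked by hand on 10 days and fall into 12 groups, called time points here and written d0 to d20 for the day, where d8c and d12c are cells of colonies picked on days 8 and 12 and the p of d6p is not explained. The series lists 10 sequenced batches, but no cell could be tied to a batch, so all cells stood as 1 sample, no test between time points was possible, and every difference below lacks a replicate check.

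Of 808 cells, 670 passed a minimum of 4000 detected genes and were used, and d20 was the shallowest time point, with a median of 195480 UMIs per cell against 344196 at d0. The filter removed 34 of 72 cells at d20 and 45 of 96 at d12c. Running numbers in the cell names separate the d12c cells into 21 kept cells numbered 1 to 24 and 30 numbered 49 to 96, and these differed so widely that they are given apart. No d12c cell with a number between these ranges was kept. The labelled cell types were checked against 10 fibroblast and 10 XEN markers. The fibroblast markers summed to 3844 CPM at d0 and to 95.7 CPM at d20, where *Osr1* and *Dcn* were at 0. The XEN markers summed to 67.6 CPM at d0 and to 1517 CPM at d20. At d12 the unpicked cells still held 12703 CPM of fibroblast markers. In the d12c cells the fibroblast markers summed to 7612 CPM in those numbered 1 to 24 and to 141 CPM in those numbered 49 to 96.

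S100 proteins are small calcium-binding proteins with a pair of EF-hand loops, most of which act as dimers that change shape on binding calcium and then grip partner proteins such as annexins and myosin. The product of *S100g*, calbindin-D9k, is an exception that works as a monomeric calcium buffer, and it is known from the calcium-transporting epithelia of gut, kidney, uterus and yolk sac. In fibroblasts the family is known for *S100a4* and *S100a6*, which go with motile and growing mesenchymal cells.

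The genes lie in 3 places. On mm9 (GENCODE M1) 8 of the 10 are on chromosome 3, *S100g* is on the X chromosome (159399924 to 159402531, minus strand) and *S100b* on chromosome 10 (75716598 to 75723904, plus strand). *S100g* overlaps *Ctps2* and *S100b* overlaps *Dip2a*, each on the opposite strand, and whether the counting used strand is not stated. *Ctps2* stayed between 11.2 and 38.9 CPM at all time points and *Dip2a* between 0.632 and 10.2 CPM, far under the high values of *S100g* and *S100b* given below. On chromosome 3 *S100a1* (90314956 to 90318314, minus strand) and *S100a13* (90318357 to 90328503, plus strand) point away from each other, and *S100a4* (90407692 to 90409967) lies 6849 bases before *S100a6* (90416816 to 90418336), both on the plus strand. *S100a11* (93324410 to 93330209) and *S100a10* (93359002 to 93368565) stand apart from these, 2824767 bases beyond the end of *S100a9*.

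RefSeq windows from 250 bases before to 50 bases after a gene's start (GRCm38.p6) were found for 9 of the 10 genes, and all were located in mm9 by exact match. Those of *S100g* and *S100a4* are shown because these genes rose and fell most, with the letters TATAAA in capitals. The third stretch holds the starts of both *S100a1* and *S100a13*, which rose and did not rise, respectively, and its capitals mark the 104 bases between the RefSeq starts.
S100g, chrX:159402482-159402781, minus strand: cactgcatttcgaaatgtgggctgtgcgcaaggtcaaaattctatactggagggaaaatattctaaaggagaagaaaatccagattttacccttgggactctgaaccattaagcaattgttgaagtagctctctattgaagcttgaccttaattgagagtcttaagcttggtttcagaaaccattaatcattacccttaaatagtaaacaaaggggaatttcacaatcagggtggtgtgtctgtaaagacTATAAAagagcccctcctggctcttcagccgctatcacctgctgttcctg
S100a4, chr3:90407442-90407741, plus strand: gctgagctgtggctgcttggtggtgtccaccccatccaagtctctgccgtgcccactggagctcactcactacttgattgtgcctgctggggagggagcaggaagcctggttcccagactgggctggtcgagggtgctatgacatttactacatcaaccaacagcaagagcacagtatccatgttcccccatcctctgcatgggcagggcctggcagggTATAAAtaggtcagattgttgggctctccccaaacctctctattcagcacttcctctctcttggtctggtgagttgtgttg
S100a1 and S100a13, chr3:90318203-90318406, plus strand: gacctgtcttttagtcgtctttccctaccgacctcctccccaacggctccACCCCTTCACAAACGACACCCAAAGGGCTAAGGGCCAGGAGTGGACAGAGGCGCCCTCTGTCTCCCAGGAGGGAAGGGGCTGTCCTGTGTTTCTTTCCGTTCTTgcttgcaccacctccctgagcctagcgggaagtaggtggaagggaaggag
TATAAA was searched on both strands and occurred in 13.6% of all 32851 windows. It began 31 bases before the start of *S100a4* and 30 bases before that of *S100a8*, and at the annotated start itself, position 1, in *S100g*. AGATAA, in 11.2% of all windows, occurred in *S100a11* at -248 on the minus strand. TGANTCA, in 7.81% of windows, occurred in *S100a11* at -136 and -38 and in the second window of *S100a16* at -192. These matches describe the letters of the windows only.

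*S100g* went from undetected to the most abundant gene by mean CPM at d20. At d0 none of 72 cells held a UMI among 40226215 UMIs in all. Taking 3 counts over the group as the limit that a count of 0 allows, this leaves up to 0.0746 CPM or 4.17% of cells, and the exact intervals at 95% end at 0.0917 CPM and 4.99%. At d20 all 38 cells held it, from 529 to 41408 CPM with a median of 17434 CPM and a mean of 18342 CPM, so that 1 gene made up 1.74% of a cell's UMIs in the median. Pooled over cells the d20 level was 15062 CPM (exact Poisson interval at 95%, 14981 to 15143, counting error only), at least 201963-fold higher than the limit of 3 UMIs over the d0 group. No d0 cell overlapped a d20 cell.

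Between these ends *S100g* did not climb evenly. No cell of d1, d3 or d8c held a UMI, and 1 of 36 cells at d5 and 3 of 83 at d2 did. At d4, 67.5% of cells held a UMI (55.9 to 77.8%, exact binomial interval at 95%), but none passed 33.1 CPM, and after thinning to 50000 UMIs the share was 20.5%. Its mean at d4 was 1.63 CPM in cells numbered 1 to 48 and 10.8 CPM in those numbered 49 and above. At d6p, 9 of 86 cells lay between 97.5 and 843 CPM and all 9 had running numbers from 73 to 87, while the other cells stayed at or under 40.5 CPM. The 9 cells kept fibroblast markers of 3662 to 15175 CPM. Of these 9 cells 1 held a UMI of *Sox17*. Mean *S100g* was 138 CPM in d6p cells numbered 73 and above and 4.21 CPM in the others. Other genes abundant in late colonies were also higher in that number range. They were *Aqp8* (9.45 against 0.982 CPM), *Srgn* (20.8 against 6.82), *Gpx2* (3.46 against 0.18) and *Sox17* (7.05 against 1.79). *Cyp26a1* was lower there (1.87 against 8.11), and *Car4* and *Epcam* were at 0 in both. At d8 *S100g* was lower again, with a mean of 2.86 CPM.

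At d12 every cell held *S100g*, but at levels of very different size. In 4 of 67 cells it stood at 12762, 14208, 18134 and 21370 CPM, and these were the 4 cells with fibroblast markers under 1000 CPM in sum, a limit set after the values were seen. The other 63 cells had a lowest value of 68.3, a median of 110.1 and quartiles of 93.4 and 135 CPM, with 1 cell at 2223 CPM. The median of these 63 cells equalled 1.07% of the mean of the cells under the limit at d12 and in d12c numbered 1 to 24. For 7 other genes that were abundant in late colonies and nearly absent at d0 (*Aqp8*, *Car4*, *Cyp26a1*, *Epcam*, *Gpx2*, *Sox17* and *Srgn*) the same proportion was 0.472 to 1.1%. In the d12c cells numbered 1 to 24 above the limit the proportion was 1.61% for *S100g* and 0.544 to 2.25% for the 7 genes. In the 63 d12 cells the quartiles of *Car4* were 1.6 and 5.35 CPM, those of *Epcam* 1.1 and 3.79 CPM and those of *Aqp8* 6.63 and 12.7 CPM. The 7 genes had medians of 2.46 to 9.14 CPM there. At such levels few UMIs per cell widen the spread, so their evenness cannot be set against that of *S100g*. The source of the low level of *S100g* was not tested. The d12 mean of *S100g*, 1136 CPM, was 153 CPM without the 4 cells.

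Cells of picked colonies differed with their running number. In d12c cells numbered 1 to 24 *S100g* had a median of 175 CPM and a mean of 973 CPM, of which 1 cell gave 11768 CPM with fibroblast markers of 1161 CPM, just above the limit. The 3 cells there under the limit held 219, 441 and 4704 CPM, so low fibroblast markers did not always go with high *S100g*. In those numbered 49 to 96 it ran from 695 to 48034 CPM with a median of 17477 CPM, close to the median at d20. Whether these number ranges are separate colonies or batches is not stated and cannot be told apart here.

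**Figure D1:**
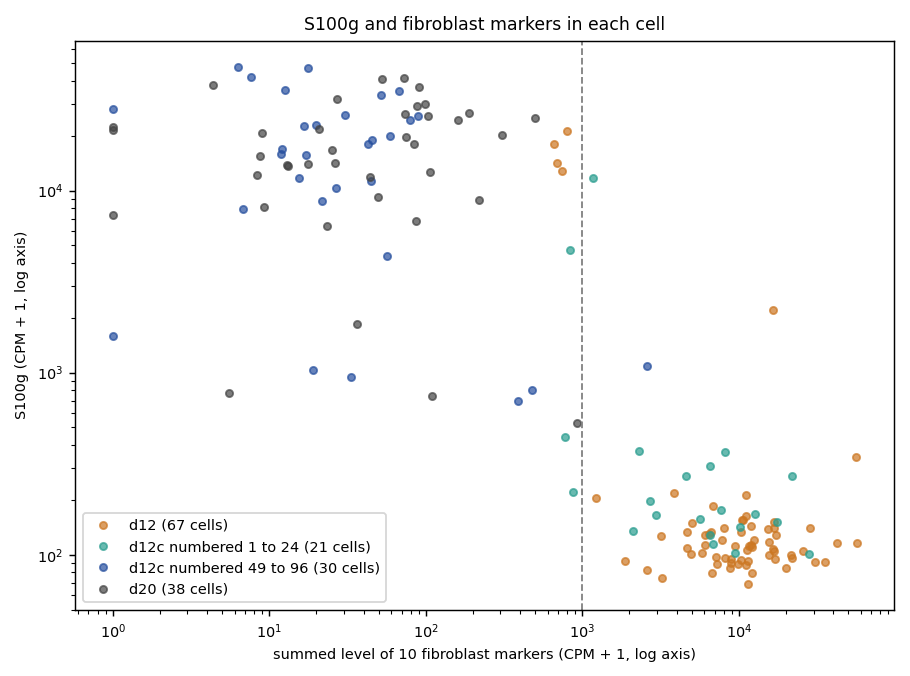
*S100g* against the summed level of 10 fibroblast markers in each cell of d12, d12c and d20, both in CPM + 1 on log axes, where the dashed line marks 1000 CPM. Most d12 cells sit at the lower right near 110.1 CPM of *S100g*, while the 4 d12 cells left of the line have *S100g* of 12762 CPM and above, in the range of the d20 cells, but higher fibroblast marker sums than nearly all of those.

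*S100a1*, which encodes a partner of calcium channels and pumps in muscle, was detected from the start and was highest at d20. Its median was 1.32 CPM at d0 and d1, 5.79 at d2, 7.61 at d3, 18.1 at d4, 6.74 at d5, 44.1 at d6p, 21.2 at d8, 8.13 at d8c, 80.7 at d12, 74.4 at d12c and 243 at d20. The course was not even, since d5 and d8 were lower than the time points before them. The d8c colony cells were also lower than the d8 cells of the same day. The d12c median pools both number ranges, and in d12c cells numbered 49 to 96 it was 107 CPM. Its mean went from 20.7 CPM at d0 to 511 CPM at d20, a ratio of 24.7. The cells overlapped, since d0 reached 409 CPM in 1 cell and 3 of 38 d20 cells held no UMI. The markers of muscle and heart did not go with it, and 5 of these 6 genes were at 0 at d20, where their sum was between 0 and 2.46 CPM in every cell.

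*S100a13*, which encodes a helper in the release of growth factors and starts next to *S100a1*, showed no such rise. Its median was 59.9 CPM at d0, 33.7 at d12 and 24.8 at d20, while its mean was 94.2, 54.4 and 175 CPM, so the mean and the median moved in opposite directions at d20. The d20 mean rested on a minority of cells, with 12 of 38 at 100 CPM or more and the highest at 1584 CPM. Without that highest cell it was 137 CPM. In the late cells the pair still went together, with a Spearman rho of 0.51 over 38 d20 cells and 0.50 over 30 d12c cells numbered 49 to 96. The rho was lower earlier or in unpicked cells, at 0.25 over 67 d12 cells and 0.19 over 72 d0 cells. These points share library depth and are a description without a test, and after thinning the 4 values were 0.59, 0.52, 0.30 and 0.30. At d20 *S100g*, on another chromosome, had a rho of 0.52 with *S100a1* and of 0.41 with *S100a13* (0.54 and 0.39 after thinning). The median rho over all pairs of the S100 genes was 0.03 at d20, 0.05 in d12c cells numbered 49 to 96, 0.10 at d12 and 0.13 at d0.

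*S100a4* and *S100a6*, the mesenchymal pair, both reached low levels in the late cells, and *S100a4* lost a larger part of its level by d12. Their means of log2(CPM + 1) over the 12 time points had a Pearson r of 0.93. *S100a4*, which encodes a binder of non-muscle myosin, was already low at d4. Its median was 728 CPM at d0, 524 at d1, 229 at d2, 274 at d3, 48.3 at d4, 135 at d5, 18.6 at d6p and d8, 23.6 at d8c and 64.0 at d12. At d20, 35 of 38 cells held no UMI and the highest cell had 98.3 CPM. The mean of 3.53 CPM there was 394-fold lower than the 1392 CPM of d0. Among d12c cells numbered 49 to 96, 1 of 30 held a UMI, at 9.48 CPM.

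*S100a6*, which encodes calcyclin, kept a larger part of its starting level until d12. Its median was 2377 CPM at d0, 2660.0 at d1, 2406 at d2, 1455 at d3, 740.4 at d4, 1690.5 at d5, 925 at d6p, 667 at d8, 646 at d8c and 771 at d12, then 18.7 in d12c cells numbered 49 to 96 and 8.81 at d20. The d20 cells divided, with 4 of 38 at 246, 1267, 1674 and 2036 CPM and the rest at or under 79.7 CPM. The 4 cells were numbered 3, 2, 12 and 10 in this order, and the other kept cells up to number 12 (1, 4, 5, 6 and 8) held 0 to 79.7 CPM. The same 4 cells held 6390, 1850, 745 and 529 CPM of *S100g*, against a median of 20030 CPM in the other 34, of which 1 was lower than the highest of the 4. The 4 were picked for their *S100a6* level after the values were seen. Across all d20 cells rho between *S100g* and *S100a6* was -0.51, and -0.24 after thinning, and *S100g* and *S100a6* themselves had rho of -0.45 and 0.45 with the UMIs of the cell.

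**Figure D2:**
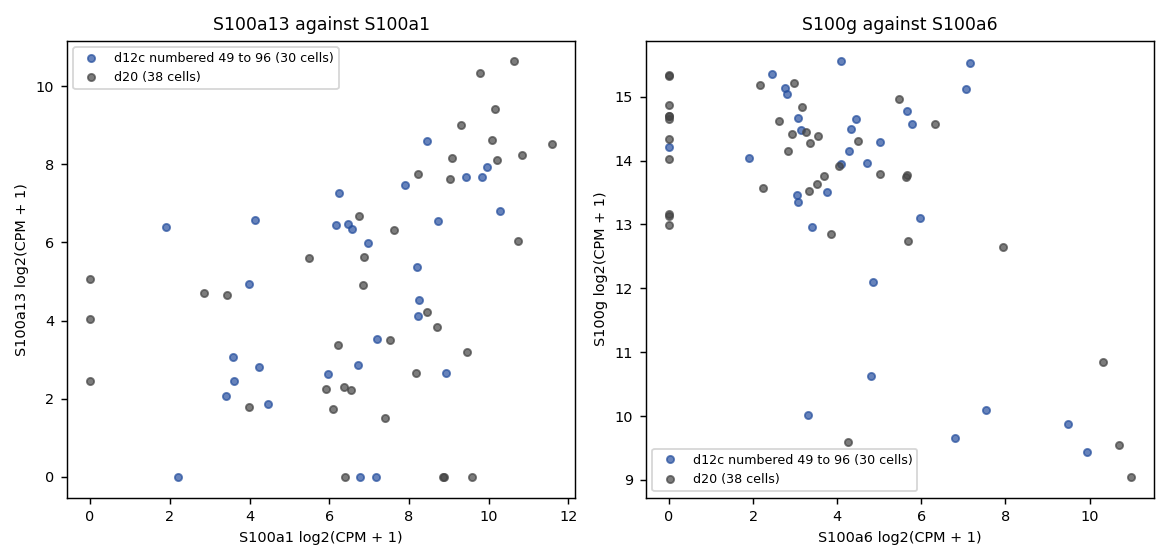
*S100a13* against *S100a1* (left) and *S100g* against *S100a6* (right) in log2(CPM + 1), with a point for each cell of d20 and of d12c numbered 49 to 96. Cells high in *S100a1* were more often high in *S100a13* (rho 0.51 at d20), and the d20 cells with the most *S100a6* sit at the bottom right.

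*S100a10* and *S100a11*, whose proteins pair with annexins A2 and A1 at membranes, were present in nearly every cell. *S100a10* had a UMI in all 670 cells and *S100a11* in 669. The mean of *S100a10* was 1209.5 CPM at d0, 945 at d12, 450.2 in d12c cells numbered 49 to 96 and 306 at d20. That of *S100a11* was 1671, 986, 358 and 229.5 CPM. Both were lowest at d20, by 3.95-fold and 7.28-fold against d0, and the cells of d0 and d20 overlapped for both. In d0 cells *S100a6* and *S100a11* had a rho of 0.49, and *S100a4* and *S100a10* one of 0.47.

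*S100a8*, *S100b* and *S100a16* were high in a minority of cells. *S100a8*, a subunit of the neutrophil protein calprotectin, held 100 CPM or more, a level set after the values were seen, in none of 72 d0 cells, 6 of 86 d6p cells and 10 of 67 d12 cells (14.9%, exact binomial interval at 95%, 7.4 to 25.7%), in which it ran from 203 to 1033 CPM. The median d12 cell held 4.49 CPM, and no d20 cell held a UMI. *S100a9*, its partner in calprotectin, had no UMI in any kept cell. At d12, 5 of 10 macrophage and neutrophil markers were at 0 (*Ptprc*, *Adgre1*, *S100a9*, *Elane* and *Ngp*), the other 5 were detected, 4 of them at a mean of 1 CPM or more with *Cd68* the highest at 17.9 CPM, the sum of the list ran from 0 to 393 CPM over cells, and it had a rho of -0.12 with *S100a8*.

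*S100b*, best known from glia, cartilage and fat, held 100 CPM or more in 2 of 72 cells at d0, 17 of 86 at d6p and 16 of 67 at d12 (23.9%, 14.3 to 35.9%), and in none of 38 at d20. Its highest d12 cell had 1536 CPM and its median was 13.2 CPM. Of the Schwann cell and neural crest markers *Sox10* and *Foxd3* were at 0 at d12, *Adipoq*, *Plin1* and *Cidec* of the fat markers were at 0, and so were *Col2a1* and *Matn1* of the cartilage markers. Others of these lists were detected, with *Mbp* at a mean of 1.13 CPM, *Fabp4* at 0.341 CPM and *Sox9* at 14.7 CPM. The sums of the 3 lists reached 38.3, 22.9 and 373 CPM in a cell and had rho of 0.17, 0.13 and 0.07 with *S100b* over the d12 cells. The d12 cells high in *S100b* had fibroblast markers of 4667 to 56972 CPM, and those high in *S100a8* 1866 to 30714 CPM. Of the 16 d12 cells high in *S100b*, 3 were also high in *S100a8*, as were 10 of all 67 d12 cells. The 2 genes had a rho of 0.17 over the d12 cells, and of 0.01 after thinning.

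*S100a16*, a broadly expressed member, held 100 CPM or more in 11 of 86 cells at d6p and 9 of 67 at d12, with medians of 7.17 and 5.38 CPM. It was at 100 CPM or more in 6 of 72 cells at d0 and 3 of 38 at d20, and the intervals of all 4 shares overlapped.

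**Figure D3:**
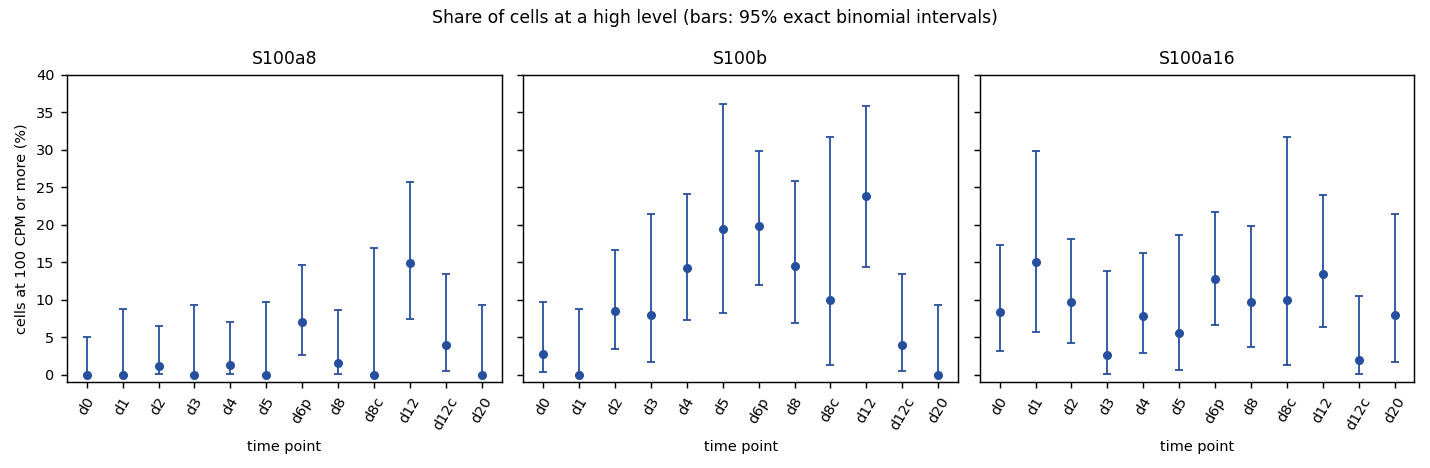
Share of cells (percent) at 100 CPM or more of *S100a8*, *S100b* and *S100a16* at each time point, with exact binomial intervals at 95% that cover counting error only. *S100b* stood at 23.9% at d12 and 0% at d20, and *S100a8* at 14.9% and 0%.

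**Figure D4:**
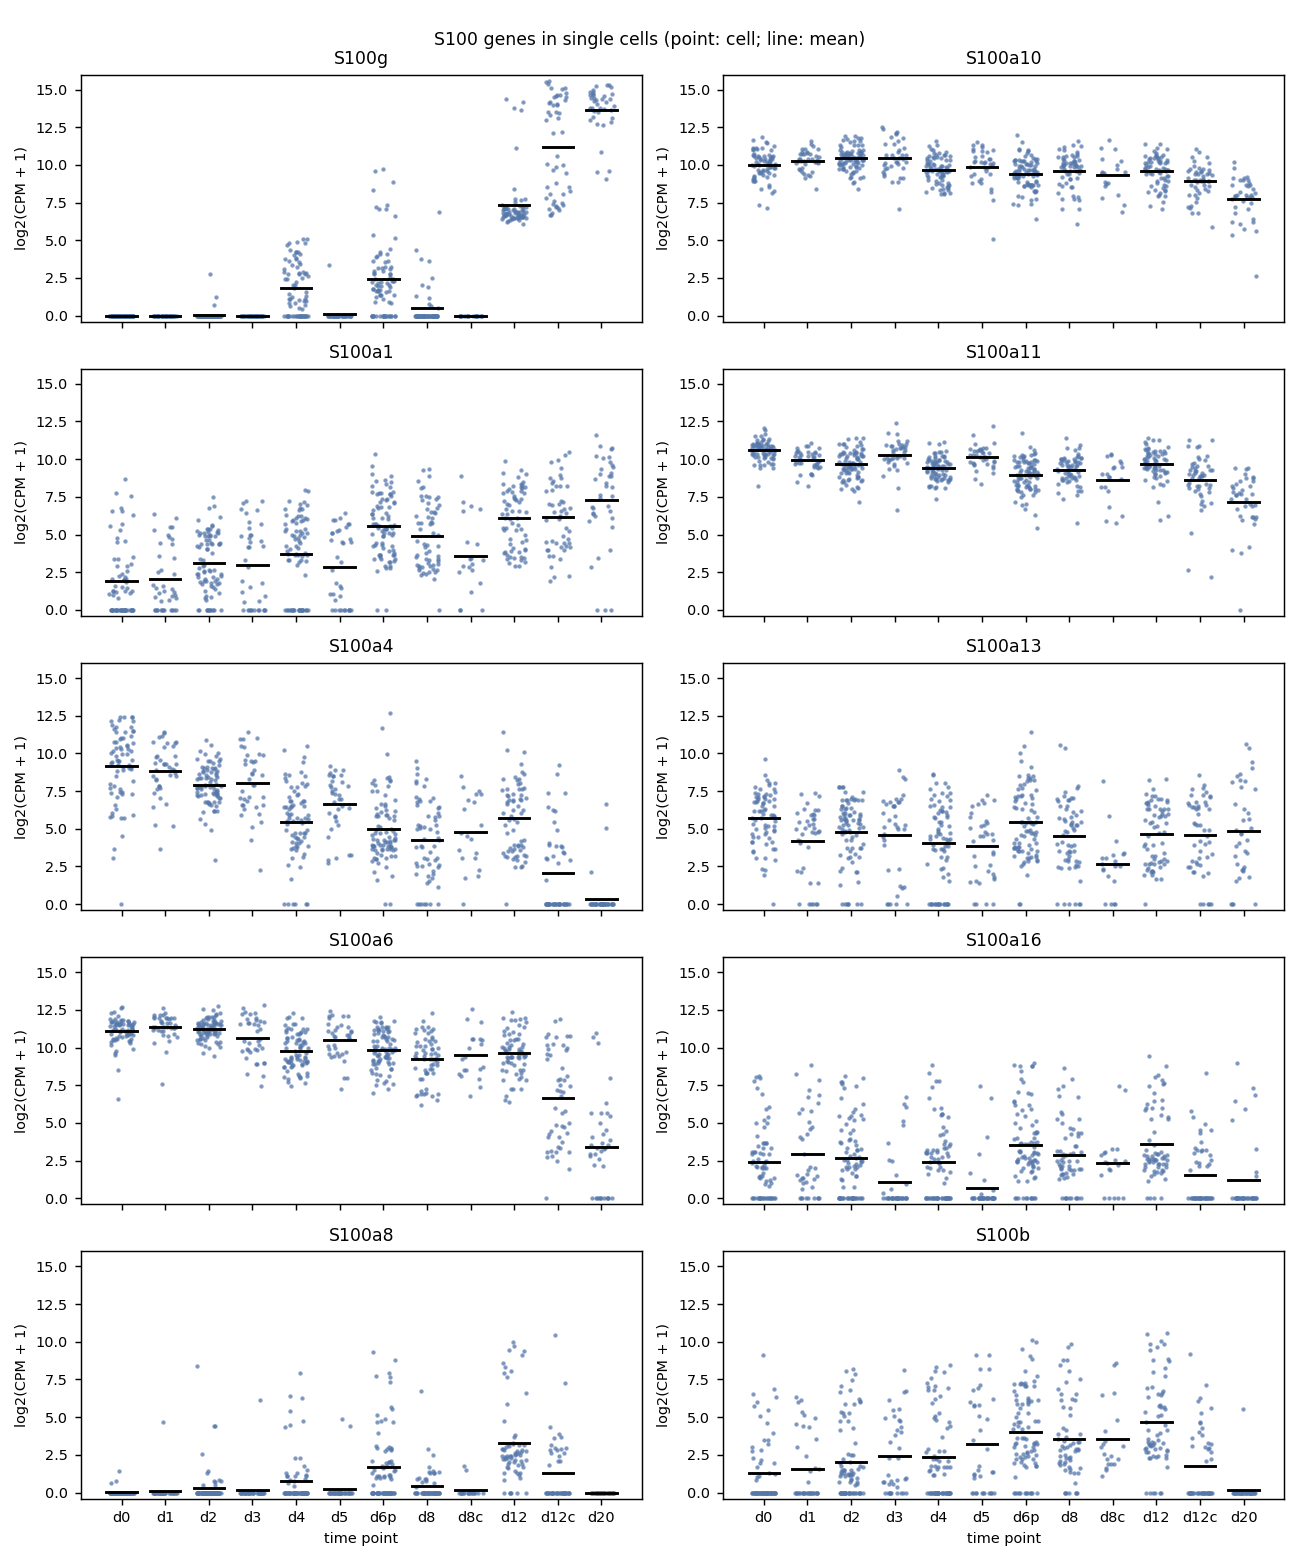
Levels of the 10 genes in log2(CPM + 1) by time point, with a point for each cell and a line for the mean. *S100g* is at 0 at d0 and spread around a mean of 13.67 at d20, and *S100a4* drops from a mean of 9.14 to 0.36.

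For comparisons over all genes the mean of log2(CPM + 1) over cells was taken at each time point, genes with a mean of at least 1 on either side were compared, and a difference of over 2 was counted. Between d20 and d0 this gave 4.38% of 9352 genes higher and 8.92% lower at d20. Of the 10 S100 genes 9 were compared (*S100a8* was too low), 2 were higher and 4 lower. The counts include the values that chose the genes, so nothing is read from them against the background. The differences were 13.67 for *S100g*, the largest rise of all genes compared, and 5.43 for *S100a1*. They were -8.78 for *S100a4*, -7.68 for *S100a6*, -3.44 for *S100a11* and -2.23 for *S100a10*, the last of which was -1.98 with the log2 of mean CPM and -1.92 with cells numbered 49 and above. *S100a13*, *S100a16* and *S100b* differed by -0.83, -1.17 and -1.16. The median of the 9 was -1.17, and that of all genes compared was -0.20.

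Between d12 and d0, 7.21% of 9611 genes were higher and 4.19% lower at d12, with 4 and 1 of the 10 S100 genes. *S100g*, *S100a1*, *S100b* and *S100a8* differed by 7.34, 4.19, 3.37 and 3.21, and *S100a4* by -3.43. For *S100g*, 63 of the 67 d12 cells had a median of 110.1 CPM, the low level described above, whose source was not tested. With a pseudocount of 10 *S100b* and *S100a8* fell under the limit, at 1.72 and 1.32. *S100a6* differed by -1.48 on this log scale, against -7.68 between d20 and d0. Its mean was 2535 CPM at d0, 1202 CPM in the unpicked d12 cells and 150 CPM at d20. The comparison of d12 with d0 shares the d0 cells with the one before.

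Between d12c cells numbered 49 to 96 and d12 cells, 5.61% of 9648 genes were higher and 14.2% lower in the colony cells, with 1 and 5 of the 10 S100 genes. *S100g* differed by 6.07. *S100a4*, *S100a6*, *S100b*, *S100a8* and *S100a16* differed by -5.60, -5.00, -4.50, -3.25 and -3.05, the last pair by -1.33 and -1.23 with a pseudocount of 10. *S100a1* and *S100a13* differed by 0.46 and 0.04, *S100a10* by -0.98 and *S100a11* by -1.77. With the d12c cells numbered 1 to 24 in their place none of the 10 differed by over 2, and *S100g* differed by 0.74. Fibroblast markers moved with this comparison, and their part in it was not tested.

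**Figure D5:**
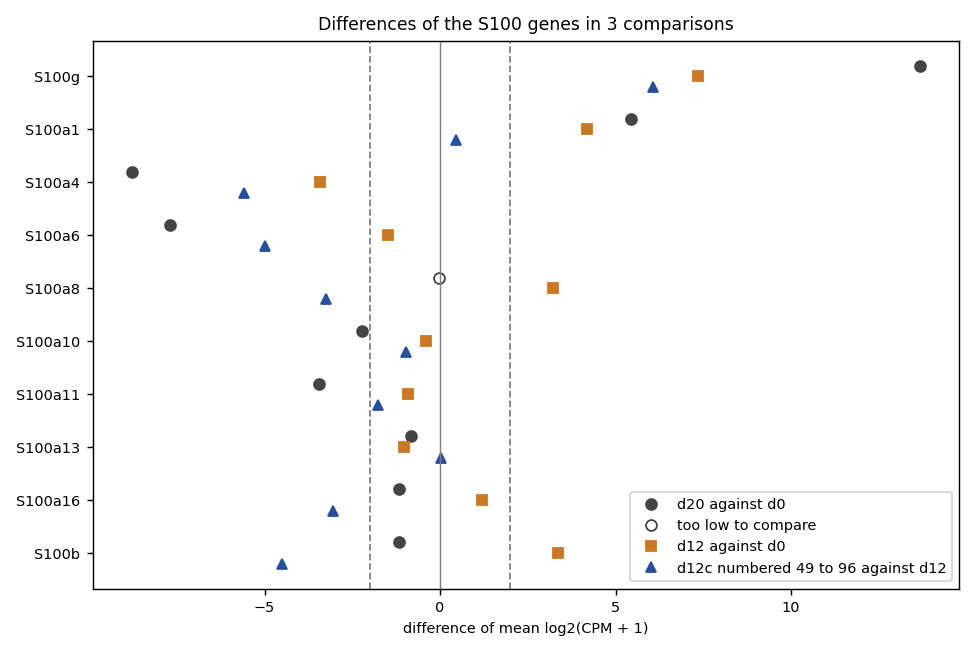
Differences of mean log2(CPM + 1) for the 10 genes in 3 comparisons, where dashed lines mark differences of 2 in either direction and the open circle a gene too low to compare. *S100g* lies to the right of the limit in each comparison and *S100a4* to the left in each. For d12 against d0 most d12 cells were at the low *S100g* level near 110.1 CPM.

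Partners of S100 proteins and other calcium handling genes were read from a list of 30. Between d20 and d0, 19 were high enough to compare, of which 1 was higher and 11 lower, against 4.38% and 8.92% of all genes. Their median was -3.13, against -0.20 for all genes compared. *Atp2b1*, the plasma membrane calcium pump that calbindin-D9k is known to work beside, was the one higher, at 2426 CPM against 239 CPM, a difference of 3.46. The annexin genes *Anxa1*, *Anxa2*, *Anxa5* and *Anxa6* were lower by differences of -8.49, -5.68, -4.55 and -3.82, and *Ahnak*, a scaffold that binds the complex of S100A10 and annexin A2, by -6.29. The calcium channel gene *Trpv6*, found with *S100g* in absorbing epithelia, had a mean of 20.3 CPM at d20 and no UMI at d0, a difference of 1.24. *Trpv5* had no UMI at either. *Ager*, the receptor for secreted S100 proteins, was at 0 at d20 and 0.103 CPM at d0.

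Between d12 and d0, 22 of the 30 were compared, with *Calb1* and *Plat* higher (2.32 and 2.24) and *Myh10* and *Sugt1* lower (-3.51 and -2.40), against 7.21% and 4.19% of all genes. The annexin gene *Anxa1* differed by -1.59 there. In the late colony cells against d12, 1 of 22 was higher (*Sugt1*, 2.03) and 10 were lower, against 5.61% and 14.2% of all genes, and *Anxa1* differed most, by -6.68.

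The genes most like each S100 gene were taken by Pearson r over the 12 time point means, among 10732 genes, as a description with no test. *S100g* was most like *Srgn*, *Podxl* and *Aqp8* (r of 0.99 for each). *S100a4* was most like *Vim* (0.97), *S100a6* like *Tpm2* (0.98) and *Anxa1* (0.97), *S100a11* like *Itgb1* (0.98), and *S100b* like *Crispld2* (0.97). *S100a10* had *S100a6* among its 3 most alike genes (0.95). *S100a1* was most like *Cdh13* (0.94), *S100a8* like *Olr1* (0.96) and *S100a16* like *Irx1* (0.94). *Olr1* and *Irx1* were near the floor, with highest time point means of log2(CPM + 1) of 1.29 and 1.95. *S100a13* had no gene above 0.79, reached by *Vamp8*.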

How the data were processed

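The deposited values are whole-number UMI counts per gene and cell without scaling, which the authors made with the mm9 transcriptome as reference and with 1 count per distinct UMI. The aligner is not given in the sources used here. ERCC spike-in rows (5.43% of counts in kept cells) and 4 entries under 2 repeated, date-like names were left out. CPM were computed per cell and averaged over cells, with a pseudocount of 1 for log2 values. No doublets were called. Intervals are exact Poisson or Clopper-Pearson at 95%.

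The genes, the lists and the limit of 2 were chosen with earlier results of these data known. Named genes were the 10 genes, other S100 and S100-fused genes, the partner list, and the 3 genes most like each member. On simulated data the comparison recovered changes of well expressed genes but missed part of those in genes of low level, because a mean of log2(CPM + 1) cannot fall below 0. A first version of this check, which did not separate genes by level, missed its pass mark, and the mark was then set on well expressed genes alone. Alternatives changed the pseudocount, cell filter, scaling, depth, averaging, gene filter, limit and running numbers. Python 3.11.15, numpy 2.4.6, pandas 2.3.3, scipy 1.17.1, R 4.3.3, edgeR 4.0.16 and DESeq2 1.42.0 were used, the last pair for scaling factors only. Promoter windows are from RefSeq and positions from GENCODE M1, counted from 1. Results for some listed genes are not reported here.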

Additional observations from a re-analysis of the deposited data

Results flagged for a closer look

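Cells below the minimum of 4000 detected genes were left out of the comparisons as reported. They entered only under the alternatives with a lower minimum or none, yet at d20 and d12c most held *S100g*. In the 34 such cells of d20 its mean was 11609 CPM, and all 34 held a UMI, at a median depth of 60536 UMIs. In the 45 such cells of d12c its mean was 13135 CPM and 42 held a UMI, at a median depth of 1028 UMIs. At that depth a CPM value rests on few UMIs, so nothing is read from this mean. In the 12 such cells of d0 none held a UMI. No test for a single cell far from its group was made, since cells are not samples.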

How the results depend on the processing

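No paired analysis was possible because the columns carry no batch number. Of the 17 differences of over 2 among the S100 genes, direction was kept in all 226 values computed under the alternatives. The count includes values that could not change direction. Changing the limit or the gene filter leaves a difference as it is, and *S100g* against d0, where all cells were at 0, cannot reverse. It also includes -0.01 for *S100a6* in d12c cells numbered 1 to 24 against d12. At the unchanged limit 12 values fell to 2 or under, for reasons that were not tested except where fewer cells enter. *S100a10* at d20 against d0 fell to -1.98 with the log2 of mean CPM and to -1.92 with cells numbered 49 and above (8 and 29 cells). A pseudocount of 10 left 2 genes higher at d12 against d0 (not *S100a8* or *S100b*) and 3 lower in the late colony cells against d12 (not *S100a8* or *S100a16*). A limit of 1 gave 3 lower at d12. With d12c cells numbered 1 to 24, 0 S100 genes were higher and 0 lower, and over all genes 6 and 28.

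Counts over all genes moved more. At d20 against d0 they were 143 higher and 208 lower with a pseudocount of 10, 724 and 2008 with 0.1, 1403 and 2350 at a limit of 1, and 677 and 1365 with cells numbered 49 and above, and 215 were higher with all deposited cells and 698 with the log2 of mean CPM. At d12 against d0 they were 206 and 68 with a pseudocount of 10, 1553 and 821 with 0.1, and 1901 and 1564 at a limit of 1. In the late colony cells against d12 they were 147 and 383 with a pseudocount of 10, 872 and 2966 with 0.1, and 1673 and 3111 at a limit of 1, and 187 were higher with all deposited cells and 845 with at least 6000 genes. The alternative without the d12 cells low in fibroblast markers was added after seeing the data and kept all counts within 1.5 times. Thinning changed the sign of 19 of 145 correlations between S100 genes, 2 of them above 0.2 in size. Depth limits shares of cells with a UMI for low genes.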

Other observations

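The S100 genes outside the 10 were scarce throughout. *S100a9* had no UMI in any kept cell, *S100z* had UMIs in 1 cell and *S100a2* in 8. *S100a5*, *S100a7a* and *S100a14* reached mean levels of 3.52, 2.68 and 1.86 CPM at their highest time points. Of the S100-fused genes, whose long proteins belong to the cornified skin, *Tchh* reached a mean of 29.4 CPM at d20, in 12 of 38 cells, while *Rptn*, *Hrnr* and *Flg2* had no UMI. Between *S100a9* and *S100a11* the table lists 52 protein-coding genes, among them the genes of the epidermal differentiation complex. Of these, 27 had no UMI and 18 reached a mean of 1 CPM at some time point, with *Sprr1a* (92.7 CPM), *Lce3f* (88.6 CPM) and *Sprr2a3* (65.1 CPM) the highest. Reads of near-identical *Sprr2* and *Lce3* copies may have been split between them.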
